A study of Mus musculus with 12 samples.

Results

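TRAV5, TRAV8 and TRAV9 are families of V segments of the mouse TCRα locus. Their clonotypes were followed in newly developed regulatory T cells (Treg) of the thymus. Members were all deposited clonotypes whose V segment is named TRAV5, TRAV8 or TRAV9, with or without a D or N behind the family number, and whose CDR3 is in frame and free of stop codons. Sequences that share V segment, J segment and CDR3 in protein count as the same clonotype. This gave 1290 of 20615 in-frame clonotypes and 8334 of 190549 in-frame UMIs (4.37%). UMIs are random tags that mark single cDNA molecules, so that a UMI count is a count of Tcra transcripts and not of cells. TRAV5 had 435 clonotypes and 2975 UMIs, TRAV8 had 502 clonotypes and 3514 UMIs, and TRAV9 had 353 clonotypes and 1845 UMIs.

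Treg were sorted as CD4+CD8-Thy1.1+GFP+ thymocytes from individual mice aged 3 weeks, with 4 wt, 4 Il2° and 4 Il15° mice and a library for each mouse. All 12 mice were B6 mice that carried the Rag2-Gfp reporter, the Foxp3-Thy1a reporter, the Kaa Tcrb transgene and the Tcra+/null genotype, and the 3 groups were wt, Il2-deficient (Il2°) or Il15-deficient (Il15°) on this background. GFP driven by the Rag2 promoter marks cells that expressed this recombinase gene recently, and Thy1.1 driven by the Foxp3 promoter marks Treg. The transgene gives the T cells a shared TCRβ chain and the null allele leaves a single functional Tcra allele, which limits how far these repertoires stand for those of normal mice. Only Tcra transcripts were measured, so the sort could not be checked against other marker genes. In a library, fewer cells of a clonotype and less Tcra RNA per cell cannot be told apart.

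A TCRα chain is made when a V segment is joined to a J segment, with trimming of both ends and with or without addition of bases between them. V segments lie upstream of the J segments, J segments with high numbers lie nearest to the V segments, and successive rearrangements on the same allele use V segments farther upstream with J segments farther downstream. The first residues of the CDR3 come from the V segment, the last ones from the J segment, and the middle contacts the peptide. IL-2 and IL-15 are cytokines that act in the differentiation of Treg in the thymus, and the comparison of genotypes asks whether their absence changes which TCRα chains are found in newly developed Treg.

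The libraries held between 7293 and 24811 in-frame UMIs, of which the 3 families took 960, 1040, 542 and 618 in wt, 562, 973, 891 and 440 in Il2°, and 658, 665, 330 and 655 in Il15° mice (replicates 1 to 4). At this depth 3 UMIs, the upper limit that a count of 0 allows, correspond to 0.0121% of the deepest and 0.0411% of the shallowest library. Intervals and limits of this kind cover counting error only. Wt replicate 3 stood apart from the other wt libraries in several features of TRAV5 and TRAV8, Il2° replicate 1 in the share of TRAV8, and Il15° replicates 2 and 3 in TRAV9. Values without a library are given beside some of the results that moved when it was left out.

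The V segments of the 3 families are spread over chromosome 14 (GRCm38, plus strand) in copies. TRAV5-1 (chr14:52622566-52623082) is the farthest upstream of those with in-frame UMIs and TRAV8-2 (chr14:53738375-53738838), annotated as a pseudogene, the farthest downstream. A D or an N in a name marks a copy in a repeated stretch of the locus, for example TRAV8D-2 (chr14:53042428-53042891), TRAV9N-2 (chr14:53203122-53203554), TRAV9D-4 (chr14:52983201-52983860) and TRAV5D-4 (chr14:53001713-53002232). The germline starts of the CDR3, read from the GENCODE transcripts of these segments beginning with the codon of the conserved cysteine, are shown to tell the V-encoded part of the clonotypes from the rest:
TRAV5-1: tgctcagcaagta
TRAV5D-4: tgtgctgcaagtg
TRAV8-1: tgtgctactgatg
TRAV8D-2: tgtgctacagatg
TRAV9-1: tgtgctgtgagcg
TRAV9-2: tgtgttttgagcg
TRAV9N-2: tgtgttctgagcg
TRAV9D-4: tgtgctctgagca
In protein these starts read CSAS and CAAS for TRAV5, CATD for TRAV8, and CAVS, CVLS or CALS for TRAV9.

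The copies limit how finely reads can be assigned. TRAV5D-4 and TRAV5N-4 are identical over all 343 aligned bases, and all such in-frame UMIs (2311) carried the name TRAV5D-4 and none the name TRAV5N-4. TRAV9D-3 and TRAV9N-3 were identical over 575 bases and TRAV9D-4 and TRAV9N-4 over 565 bases. For TRAV9 the deposited names also differed from the annotation: of the UMIs named TRAV9D-3, 98.3% began with CAL, whereas GENCODE gives CAV, and of those named TRAV9D-4, 99.0% began with CAV, whereas GENCODE gives CAL. TRAV9 segments are therefore described by family and by these starts where the difference matters. Of the 44 UMIs named TRAV8-2, the annotated pseudogene, 23 (52.3%, 95% Wilson interval 37.9 to 66.3%) were out of frame or held a stop codon and 21 were in frame. For the tests on segments, D and N copies were merged by name.

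TRAV9 was the least used of the 3 families, and its share of in-frame UMIs was higher in every Il2° than in every wt library. In the 4 wt libraries TRAV9 held 0.730, 0.900, 0.713 and 0.796% of in-frame UMIs. In Il2° mice it held 1.27, 1.13, 1.28 and 1.12%, and in Il15° mice 1.09, 1.36, 0.764 and 0.791%. All Il2° values lay above all wt values, with means of 1.20 ± 0.0855% against 0.785 ± 0.0849% (SD, n = 4), a ratio of 1.53, whereas Il15° replicates 1 and 2 were above and replicates 3 and 4 within the range of the wt libraries. The exact 2-sided Mann-Whitney test gave p = 0.0286 for Il2° against wt, the smallest p that 4 against 4 libraries allow, and an adjusted p = 0.1 over the 14 TRAV families with a mean share of at least 0.5%. Of these 14 families 28.6% showed no overlap in this comparison, so that the separation of TRAV9 is shared with other families. With each clonotype counted once, the TRAV9 difference was 0.319 percentage points. The libraries of the 2 genotypes then overlapped (exact Mann-Whitney p = 0.0571, n = 4). For Il15° against wt the difference did not pass (mean 1.00 ± 0.281%, p = 0.343, n = 4, exact), and its size of 0.217 percentage points was 0.0967 without Il15° replicate 2, with 7.14% of families without overlap in that comparison. Il15° and Il2° gave p = 0.343 (exact, n = 4), with 28.6% of families without overlap.

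The size of the TRAV9 difference depended on the scale. With edgeR's quasi-likelihood test on UMI counts per family, TRAV9 had a log2 fold change of 0.39 ± 0.17 (SE) in Il2° against wt after TMM scaling (adjusted p = 0.211). Without TMM the log2 fold change was 0.61 (edgeR adjusted p = 0.0302). The fit without TMM called 5 of all 19 families and the fit with TMM 1 of 19. TMM moved the median log2 fold change of all families from 0.23 to 0.0076, and the adjusted p of TRAV9 ranged from 0.00848 to 0.547 over the 13 alternatives to the TMM fit. The most used family, TRAV4, held 35.4 ± 2.16% of in-frame UMIs in wt and 27.2 ± 1.57% in Il2° libraries, without overlap. The part of this in the share of TRAV9 was not tested.

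TRAV8 was the most used of the 3 families and its share was more variable among Il2° mice than among the others. Wt libraries held 1.77, 1.82, 1.56 and 1.59%, Il2° libraries 1.41, 2.41, 2.67 and 3.28%, and Il15° libraries 1.49, 1.93, 1.36 and 1.52%. Il2° replicate 1 was below all wt libraries, and the other 3 Il2° libraries were above all wt and Il15° libraries. The mean was 2.44 ± 0.776% in Il2°, 1.68 ± 0.128% in wt and 1.58 ± 0.247% in Il15° mice (SD, n = 4), and the exact Mann-Whitney p was 0.343, 0.343 and 0.2 for Il2° against wt, Il15° against wt and Il15° against Il2°. Without Il2° replicate 1, edgeR gave TRAV8 a log2 fold change of 0.51 in Il2° against wt with an adjusted p of 0.0203, where the fit with all libraries gave 0.29 and an adjusted p of 0.561. Of all 19 families, 4 were called without Il2° replicate 1 and 1 with all libraries. Without Il2° replicate 4 the log2 fold change was 0.14 (edgeR adjusted p = 0.677), and the difference in mean share was 0.478 instead of 0.757 percentage points. The range over the alternatives was 0.0203 to 0.677. Between Il15° and Il2° the log2 fold change was -0.42 (edgeR adjusted p = 0.277) with all libraries and -0.61 (adjusted p = 0.0219) without Il2° replicate 1. In this comparison 2 of 19 families were called with all libraries and 5 of 19 without Il2° replicate 1.

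TRAV5 shares overlapped among the 3 genotypes. They were 1.37, 1.83, 1.24 and 1.32% in wt, 1.73, 1.99, 2.18 and 1.63% in Il2°, and 1.23, 1.79, 1.06 and 1.36% in Il15° libraries. Only wt replicate 2 among the wt libraries reached the range of the Il2° libraries, and likewise only replicate 2 among the Il15° libraries. The means were 1.44 ± 0.264, 1.88 ± 0.248 and 1.36 ± 0.311% (SD, n = 4), with exact Mann-Whitney p of 0.114, 0.486 and 0.114 in the order used above. The difference in mean share of Il15° against wt was -0.0777 percentage points. It was -0.220 without Il15° replicate 2 and turned to 0.0513 without wt replicate 2.

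**Figure D1:**
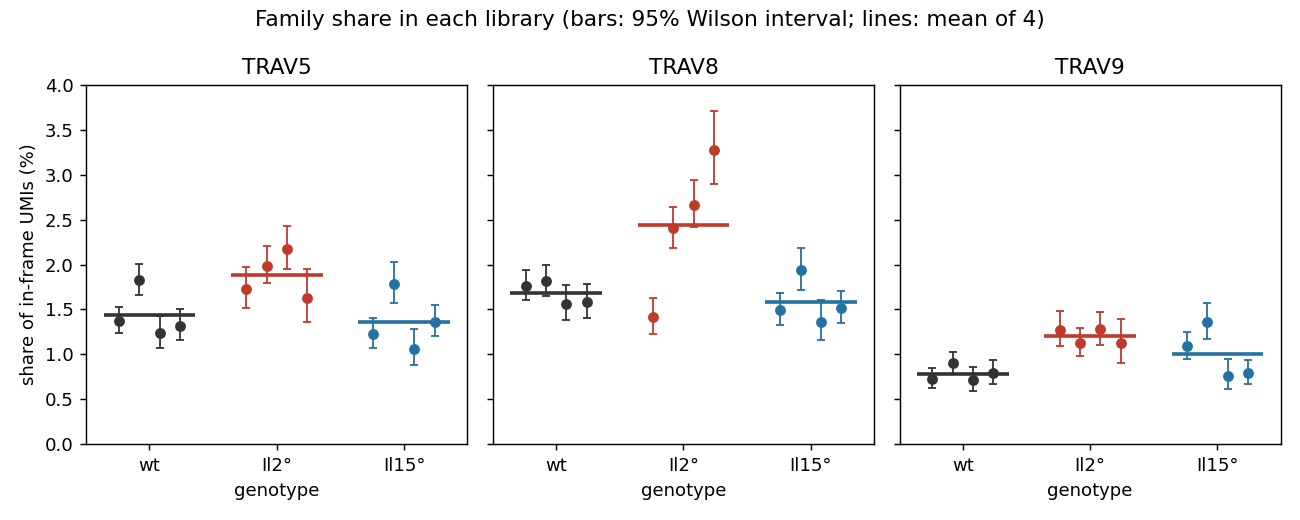
Share of in-frame UMIs (%, linear axis from 0) held by TRAV5, TRAV8 and TRAV9 in each wt, Il2° and Il15° library. Points are libraries, bars their 95% Wilson intervals and lines the mean of 4 libraries. The 4 Il2° libraries lie between 1.12 and 1.28% for TRAV9, above the 4 wt libraries, whereas Il2° replicate 1 lies below the other Il2° libraries for TRAV8.

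TRAV5-4, which in these names is almost entirely TRAV5D-4, held on average 77.5% of TRAV5 UMIs and TRAV5-1 the other 22.5%. TRAV8-1 and TRAV8-2 with their copies held 50.8 and 49.2% of TRAV8 UMIs. TRAV9 was divided among TRAV9-2 (35.3%), TRAV9-4 (28.2%), TRAV9-3 (25.4%) and TRAV9-1 (11.2%). Merged by name, TRAV9-3 and TRAV9-4 were mixed groups, since 60.1% of TRAV9-3 UMIs began with CAL and 38.9% with CAV, and 71.0% of TRAV9-4 UMIs with CAV and 28.7% with CAL. With edgeR's quasi-likelihood test on UMI counts, none of the 8 segments had an adjusted p under 0.05 in any comparison. Of all segments tested, 2.22% were called in Il2° against wt, 0% in Il15° against wt and 8.89% in Il15° against Il2°. An unadjusted p under 0.05 was reached by 2, 1 and 0 of the 8 segments, beside 17.8, 4.35 and 20% of all segments. DESeq2 and limma called 0 of the 8 in each comparison, beside 4.44, 0 and 6.67% of all segments with DESeq2 and 0, 0 and 2.22% with limma. The median log2 fold change of the 8 segments was 0.34 in Il2° against wt, beside 0.08 over all segments.

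TRAV8-2 with its D and N copies had 0.734, 0.756, 0.687 and 0.790% of in-frame UMIs in wt libraries and 0.738, 1.32, 1.44 and 1.44% in Il2° libraries. In Il15° libraries it had 0.701, 0.872, 0.812 and 0.864%. Il2° replicate 1 lay within the wt range and the other 3 Il2° libraries above it. The log2 fold change of TRAV8-2 in Il2° against wt was 0.51 ± 0.20 (SE, edgeR adjusted p = 0.191) and 0.67 ± 0.17 (adjusted p = 0.0208) without Il2° replicate 1, with a range of the adjusted p from 0.0208 to 0.439 over the alternatives. TRAV9-2, of whose UMIs 91.5% began with CVL, had 0.226, 0.131, 0.311 and 0.252% in wt and 0.557, 0.278, 0.433 and 0.480% in Il2° libraries, with a log2 fold change of 0.74 ± 0.32 (edgeR adjusted p = 0.193). In Il15° libraries TRAV9-2 had 0.232, 0.681, 0.2998 and 0.370%, and its log2 fold change against wt was 0.79 ± 0.35 (edgeR adjusted p = 0.715). Neither mutant passed the threshold for this segment, and Il2° replicate 2 and Il15° replicates 1 and 3 lay within the range of the wt libraries. Grouped by their starts, TRAV9 UMIs comprised 778 with CAV, 568 with CVL and 445 with CAL. For Il2° against wt the exact Mann-Whitney p of these starts was 0.0571, 0.0571 and 0.114 (4 against 4 libraries, unadjusted). For Il15° against wt it was 0.0571 for CVL and 0.886 for both CAV and CAL.

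The 3 families differed in the J segments they used most, with some in common: TRAJ12 was among the 5 most used by TRAV5 and TRAV8, TRAJ21 among those of TRAV5 and TRAV9, and TRAJ23 among those of TRAV8 and TRAV9. TRAV5 used 41 J segments, TRAV8 used 35 and TRAV9 used 33, but the 5 most used J segments of a family held 52.3, 57.6 and 53.0% of its UMIs. The same J segments held 22.2, 24.8 and 23.5% of the UMIs of the other TRAV families. The 5 were picked as the highest of each family, so that lower shares elsewhere follow in part from the choice, and these values are a description without a test. TRAV8 was joined to TRAJ27 in 18.6% of its UMIs and to TRAJ4 in 18.3%, against 5.07 and 2.05% in the other families, and both were above the other families in 12 of 12 libraries. TRAJ39 (7.80% against 2.76%) was also above in 12 of 12 libraries, but a single clonotype held 213 of its 273 UMIs with TRAV8. The clonotypes named below held less of the others, with 148 of the 640 UMIs with TRAJ27 and 239 of the 600 with TRAJ4. TRAJ23 (7.99 against 6.38%) was above in 7 and TRAJ12 (5.02 against 8.57%) in 1 of 12 libraries.

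TRAV5 was joined to TRAJ12 in 20.2% of its UMIs, against 8.57% in the other families, and above them in 12 of 12 libraries. The next were TRAJ9 (10.8 against 7.19%), TRAJ21 (9.53 against 4.54%), TRAJ48 (6.05 against 0.654%) and TRAJ11 (5.72 against 1.28%). TRAJ9 was above the other families in 9, TRAJ21 in 8 and TRAJ11 in 11 of 12 libraries. TRAJ48 was above the other families in 11 of 12 libraries and was not found with TRAV5 in wt replicate 3. Single clonotypes named below held 370 of the 600 UMIs of TRAV5 with TRAJ12 and 124 of the 180 with TRAJ48. For TRAJ21 this was 87 of 306 and for TRAJ9 73 of 308. TRAV9 was joined to TRAJ43 in 11.2% of its UMIs, against 0.630% in the other families, and above them in 12 of 12 libraries. For TRAJ23 and TRAJ18 the mean over libraries (12.3 and 10.5% of TRAV9 UMIs) was raised by single libraries. TRAJ23 ranged from 0.562% of TRAV9 UMIs in Il15° replicate 2 to 43.6% in wt replicate 3 around a median of 8.81%, and TRAJ18 from 1.85 to 36.7%, the latter in Il15° replicate 3, around a median of 5.85%. TRAJ31 (mean 10.8%, median 11.6%) and TRAJ21 (mean 8.13%, median 9.30%) completed the 5. In the other families TRAJ23 held 6.38%, TRAJ18 2.68%, TRAJ31 9.22% and TRAJ21 4.54%. TRAV9 was above these values in 9, 10, 9 and 7 of 12 libraries, in that order.

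**Figure D2:**
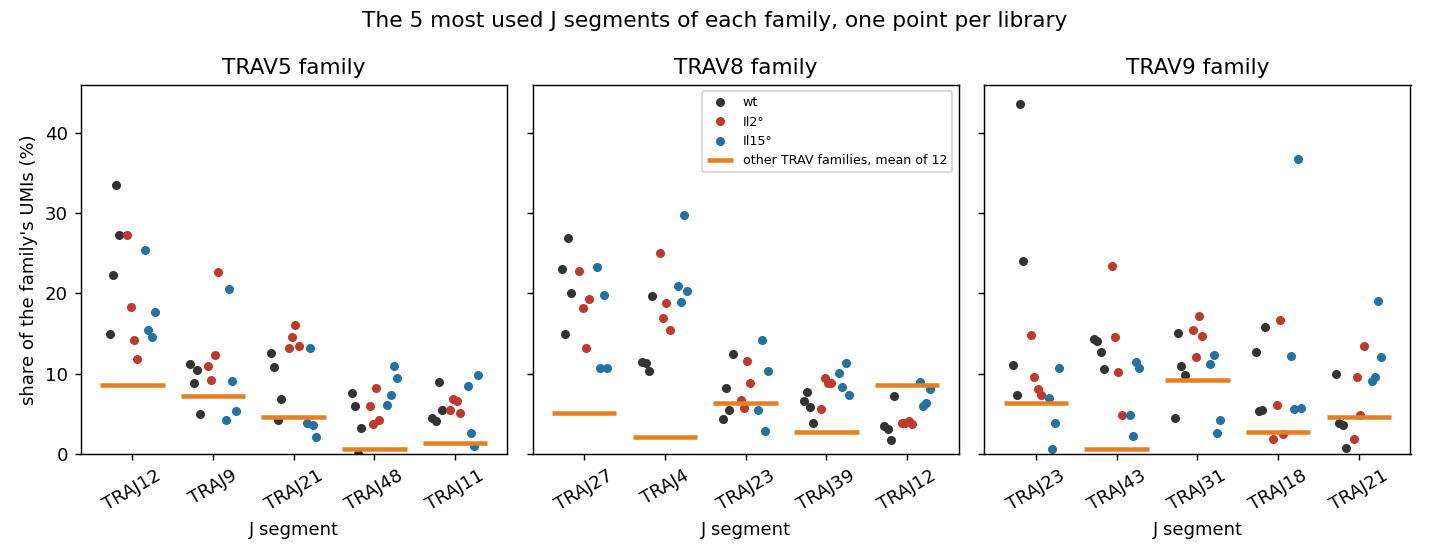
Share of the UMIs of a family (%, linear axis) joined to each of its 5 most used J segments. Points are single libraries coloured by genotype, and orange lines the mean of the other TRAV families over 12 libraries. TRAJ27 and TRAJ4 with TRAV8, TRAJ12 with TRAV5 and TRAJ43 with TRAV9 lie above the line in all 12 libraries, and single points stand out for TRAJ23 (43.6%) and TRAJ18 (36.7%) with TRAV9.

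No pair of these families with a J segment passed edgeR's test at an adjusted p under 0.05. Tested were 43 pairs in Il2° against wt, 41 in Il15° against wt and 35 in Il15° against Il2°, of which 7, 3 and 5 had an unadjusted p under 0.05, beside 14.5, 6.95 and 14.5% of all pairs. Of all pairs, 2.3% were called in Il2° against wt and 0% in both other comparisons. DESeq2 called 1, 0 and 1 of the member pairs, beside 4.93, 0.331 and 4.26% of all pairs, and limma 0, 0 and 0, beside 0, 0.662 and 0%. The median log2 fold change was 0.56 over the 43 member pairs and 0.09 over all pairs in Il2° against wt. In Il15° against wt it was -0.04 beside 0.01, and in Il15° against Il2° -0.52 beside -0.03. The comparisons against wt share the wt libraries, and that of Il15° against Il2° shares the mutant libraries with both, so that these medians are not independent of each other. A pair could also pass the filter of 5 UMIs in 4 libraries through 1 genotype alone, where it is high. The medians of members depend on this choice and were not tested.

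The pair of TRAV8 with TRAJ4 had the smallest adjusted p of the named pairs in Il2° against wt. It held 0.202, 0.205, 0.162 and 0.311% of in-frame UMIs in wt libraries, 0.353, 0.409, 0.501 and 0.507% in Il2° libraries, and 0.313, 0.367, 0.406 and 0.309% in Il15° libraries. Every Il2° library was above every wt library, and wt replicate 4 reached the range of the Il15° libraries. The log2 fold change in Il2° against wt was 1.00 ± 0.29 (SE, edgeR adjusted p = 0.0661). The adjusted p was 0.0186 with DESeq2 and 0.0311 without Il2° replicate 1, in a range of 0.0186 to 0.254 over all alternatives.

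The pair of TRAV8 with TRAJ5, sixth among the J segments of TRAV8 and chosen after its values were seen, held 0.0628, 0.380, 0.172 and 0.0823% in Il2° libraries. In Il15° libraries it held 0, 0.0612, 0.0193 and 0.0112%, and in wt libraries 0.153, 0.0786, 0.0454 and 0.0120%. All Il15° libraries were below all Il2° libraries, narrowly so for Il15° replicate 2. The UMI counts were 8, 67, 25 and 6 in Il2° and 0, 8, 2 and 2 in Il15° libraries. The pair thus passed the filter through the Il2° libraries, where it is high, and the fit describes it without being an independent test. Of its 183 UMIs over all libraries, 132 were of TRAV8D-2 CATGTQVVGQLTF TRAJ5, 50 of them in Il2° replicate 2. The log2 fold change in Il15° against Il2° was -2.96 ± 0.79 (SE, edgeR adjusted p = 0.0517), and the adjusted p ranged from 0.00597 without Il15° replicate 2 (log2 fold change -4.07) to 0.312 without Il2° replicate 2 (-2.27) over the alternatives. It was 0.0143 with DESeq2, 0.015 without a filter on low counts and 0.0333 with the replicate number as a block. TRAV5 with TRAJ21 held 0.228, 0.289, 0.3503 and 0.2194% in Il2° and 0.0463, 0.237, 0.0387 and 0.0281% in Il15° libraries, with Il15° replicate 2 alone inside the Il2° range. Its log2 fold change was -1.63 ± 0.53 (edgeR adjusted p = 0.114) and -2.77 ± 0.52 (adjusted p = 0.00247) without that library. Without the same library TRAV5 with TRAJ9 had a log2 fold change of -1.71 (edgeR adjusted p = 0.0369), against -0.75 with it (adjusted p = 0.606) and -0.49 without Il15° replicate 1. Over the alternatives the adjusted p of edgeR, DESeq2 or limma ranged from 0.00247 to 0.336 for TRAV5 with TRAJ21 and from 0.0369 to 0.84 for TRAV5 with TRAJ9.

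The most abundant clonotypes of each family are shown with their commonest nucleotide sequence, since they have the highest mean shares. Most use a J segment among the 5 most used by their family, with the exception of the TRAJ5 clonotype of TRAV8 and the TRAJ12 clonotype of TRAV9. Capitals mark the bases between the deposited end of V and start of J, and a sequence in lower case throughout has none:
TRAV5D-4 with TRAJ12, 12 residues: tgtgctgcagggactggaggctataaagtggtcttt
TRAV5D-4 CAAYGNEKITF TRAJ48: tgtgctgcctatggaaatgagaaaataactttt
TRAV5D-4 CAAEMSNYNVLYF TRAJ21: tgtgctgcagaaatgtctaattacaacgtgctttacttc
TRAV5-1 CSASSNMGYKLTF TRAJ9: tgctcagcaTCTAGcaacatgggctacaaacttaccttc
TRAV8D-2 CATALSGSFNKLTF TRAJ4: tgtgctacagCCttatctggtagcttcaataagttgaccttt
TRAV8-1 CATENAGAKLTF TRAJ39: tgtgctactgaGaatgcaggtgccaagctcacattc
TRAV8-1 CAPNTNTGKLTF TRAJ27: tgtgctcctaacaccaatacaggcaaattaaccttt
TRAV8D-2 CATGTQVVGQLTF TRAJ5: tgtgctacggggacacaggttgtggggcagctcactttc
TRAV9D-4 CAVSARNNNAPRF TRAJ43: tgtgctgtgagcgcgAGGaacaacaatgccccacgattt
TRAV9N-2 with TRAJ18, 15 residues: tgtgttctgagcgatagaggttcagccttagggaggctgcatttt
TRAV9N-2 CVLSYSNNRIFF TRAJ31: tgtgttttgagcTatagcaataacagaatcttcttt
TRAV9N-2 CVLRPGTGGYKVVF TRAJ12: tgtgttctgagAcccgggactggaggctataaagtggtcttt
Of the 12 sequences, 6 hold no base between V and J. The TRAJ31 clonotype named TRAV9N-2 begins with the germline start that GENCODE gives for TRAV9-2. The TRAJ43 clonotype named TRAV9D-4 begins with that given for TRAV9-1 and TRAV9-4, so that the start listed for TRAV9D-4 does not mark its V-encoded part.

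The clonotype of TRAV5D-4 with TRAJ12 and a CDR3 of 12 residues was found in all 12 libraries with 370 UMIs, 12.4% of all TRAV5 UMIs, and was made by 9 different nucleotide sequences. The wt libraries had 35, 54, 48 and 49 UMIs of it, the Il2° libraries 32, 31, 24 and 5, and the Il15° libraries 32, 22, 6 and 32. Il2° replicate 4 (0.0686% of in-frame UMIs) and Il15° replicate 3 (0.0580%) were also the lowest of their genotypes as a share. Its mean share of the in-frame repertoire was 0.245 ± 0.0766% for wt, 0.165 ± 0.0749% for Il2° and 0.148 ± 0.0603% for Il15° mice (SD, n = 4). The same CDR3 joined to TRAJ12 was also found with 8 other V segments in 110 UMIs, most often TRAV4N-3 (62 UMIs). The TRAJ48 clonotype (124 UMIs) was found in 11 libraries, the TRAJ21 clonotype (87 UMIs) in 10, and the TRAV5-1 clonotype (73 UMIs) in 9.

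TRAV8D-2 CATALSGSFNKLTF TRAJ4 was found in all 12 libraries with 239 UMIs and was made by 13 nucleotide sequences, the commonest with 28.0% of them. The wt libraries had 17, 8, 21 and 22 UMIs of it, the Il2° libraries 27, 34, 29 and 15, and the Il15° libraries 19, 21, 5 and 21. As a share of in-frame UMIs it was nearly even among Il2° mice (0.202 ± 0.0082%) and lower and more variable in wt (0.0928 ± 0.0494%) and Il15° mice (0.109 ± 0.0463%; SD, n = 4). The log2 fold change in Il2° against wt was 1.17 ± 0.49 (SE, edgeR adjusted p = 0.435). Its whole CDR3 with TRAJ4 was found with no other V segment, and its residues from position 4 onward with TRAV4D-4 alone (4 UMIs). TRAV8-1 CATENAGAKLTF TRAJ39 (213 UMIs) was also found in all 12 libraries, with 1 to 34 UMIs. TRAV8-1 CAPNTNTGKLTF TRAJ27 (148 UMIs) and TRAV8D-2 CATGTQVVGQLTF TRAJ5 (132 UMIs) were found in 11 libraries each and were both absent from Il15° replicate 1, where a count of 0 allows up to 0.0174%. The TRAJ5 clonotype had 50 of its UMIs in Il2° replicate 2.

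TRAV9D-4 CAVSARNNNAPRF TRAJ43 held 197 UMIs, 10.7% of TRAV9, in 12 libraries and 11 nucleotide sequences, and so made up most of the 210 UMIs of TRAV9 with TRAJ43. Its UMI counts were 26, 28, 14 and 13 in wt, 36, 26, 17 and 3 in Il2°, and 9, 2, 8 and 15 in Il15° libraries. Wt mice had a mean share of 0.0989 ± 0.0191%, Il2° mice 0.147 ± 0.101% and Il15° mice 0.0572 ± 0.0312% (SD, n = 4), with an edgeR adjusted p of 0.862 for Il2° against wt and 0.564 for Il15° against Il2°. Apart from 4 UMIs with 2 other TRAV9 names, this CDR3 was found with no other V segment. The other TRAV9 clonotypes were unevenly spread over the mice. The TRAV9N-2 clonotype with TRAJ18 had 63 UMIs in 5 libraries, with 2 and 19 UMIs in Il2° replicates 2 and 3 and 11, 25 and 6 UMIs in Il15° replicates 1, 3 and 4, where the 25 UMIs were 31.7% of the TRAV9 UMIs of that library. It was not found in the wt libraries, where a count of 0 allows up to 0.0121, 0.0131, 0.0194 and 0.0180%. TRAV9N-2 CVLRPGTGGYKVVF TRAJ12 had 35 of its 38 UMIs in Il15° replicate 2.

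**Figure D3:**
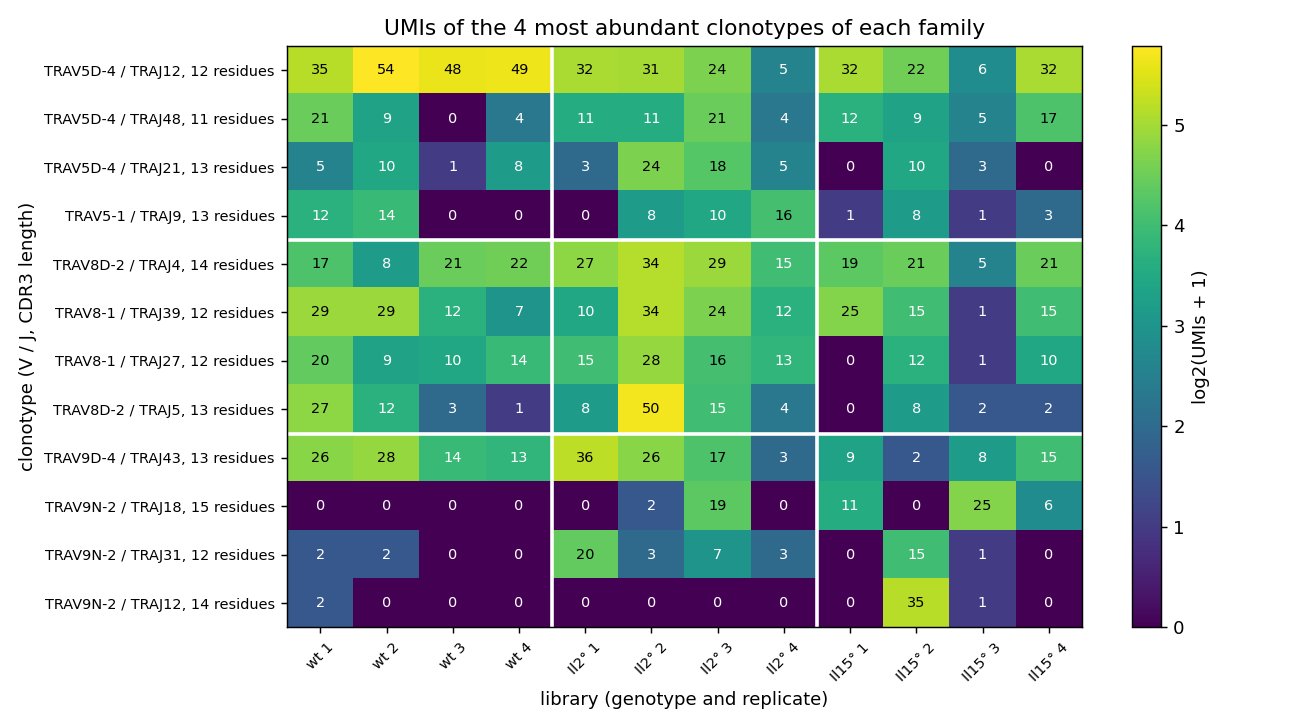
UMI counts of the 4 most abundant clonotypes of each family (rows, named by V, J and CDR3 length) in the 12 libraries (columns). The number in each cell is the UMI count and the colour log2(UMIs + 1). The leading clonotypes of TRAV5, TRAV8 and TRAV9 have UMIs in every library, and the last 3 TRAV9 rows are filled mainly by a few libraries.

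Among single clonotypes, 19 members could be tested in Il2° against wt, 14 in Il15° against wt and 17 in Il15° against Il2°. EdgeR called 0 of them in each comparison, and an unadjusted p under 0.05 was reached by 1, 0 and 1, beside 10.4, 4.08 and 9.38% of all clonotypes. DESeq2 and limma also called 0 members, beside 1.33, 1.07 and 0.852% of all clonotypes with DESeq2 and 0, 0.644 and 0% with limma. Over all clonotypes tested (452, 466 and 352) edgeR called 0% in each comparison. The median log2 fold change was 0.70 over the 19 members and 0.04 over all clonotypes in Il2° against wt, and -0.73 over the 17 members and 0.02 over all in Il15° against Il2°, which share the Il2° libraries. For Il15° against wt the median was -0.27 over the 14 members and -0.16 over all clonotypes. In data simulated after Il2° against wt, edgeR recovered 3.57% of 28 changes of 2-fold and 33.3% of 24 changes of 4-fold among 445 clonotypes. Changes of this size would thus mostly be missed with 4 libraries a group. The simulated counts carried both counting error and spread between mice, which were not told apart. All simulated features of a kind were given the same spread. For pairs of V family and J segment, edgeR recovered 17.2 and 86.2% of 29 changes at each fold among 309 pairs. For segments it recovered 83.3 and 100% of only 6 changes at each fold among 45 segments.

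The CDR3 of each family were compared with those of all other in-frame UMIs of the same library by an exact sign-flip permutation test over the 12 libraries, with adjustment over 14 families and 12 measures (168 tests). Of these tests 69.6% had an adjusted p under 0.05, so that a difference from the rest is usual for a TRAV family. The residue values below are for the centre of the CDR3, without the first 4 and last 4 positions, which are mostly encoded by V and J. The centre holds V and J bases too. The mean number of bases between V and J was only 2.21 in TRAV5, 2.15 in TRAV8 and 2.20 in TRAV9. Differences in central residues were not separated from differences in J usage.

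TRAV5 CDR3 were richer in aromatic residues (14.7 ± 1.26% against 10.3 ± 0.242%, SD) and in proline (3.68 ± 0.923% against 1.54 ± 0.0636%), each higher in 12 of 12 libraries (permutation, adjusted p = 0.00112, with an unadjusted p of 0.000488, the smallest these 12 libraries allow). Basic residues were lower in 11 of 12 libraries (3.31 against 4.40%, adjusted p = 0.00656, permutation), but counted once per clonotype and library the difference was -0.0147 points and did not pass the threshold. The mean TRAJ number was 21.7 ± 1.99 against 23.6 ± 0.669 (lower in 10 of 12 libraries, adjusted p = 0.0248, permutation), which is toward the downstream end of the J cluster. The mean length of 12.9 ± 0.262 residues against 13.1 ± 0.0217 residues did not pass the threshold (adjusted p = 0.0627, permutation). Without wt replicate 3, where it was 13.6 residues, the difference was -0.248 residues and passed the threshold, whereas counted once per clonotype and library it had the opposite sign (0.0491 residues) and did not pass.

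TRAV8 CDR3 came from J segments farther downstream, with a mean TRAJ number of 19.8 ± 1.18 against 23.6 ± 0.636, lower in 12 of 12 libraries (permutation, adjusted p = 0.00112). Their centre held fewer charged residues. Acidic residues made up 0.862 ± 0.517% against 2.97 ± 0.240%, and basic residues 2.61 ± 0.714% against 4.41 ± 0.272%, both lower in 12 of 12 libraries (permutation, adjusted p = 0.00112). Polar residues were more frequent (46.5 against 43.7%, higher in 11 of 12 libraries, adjusted p = 0.00338, permutation). TRAV8 CDR3 were also shorter by 0.142 residues on average (lower in 10 of 12 libraries, adjusted p = 0.0102, permutation).

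TRAV9 CDR3 were longer and more basic than the rest. The mean length was 13.57 ± 0.0811 against 13.08 ± 0.0204 residues and higher in 12 of 12 libraries, and basic residues made up 8.25 ± 1.70% against 4.34 ± 0.258%, also higher in 12 of 12 libraries (permutation, adjusted p = 0.00112 for both). Without Il15° replicate 3 these differences were 0.485 residues and 3.64 percentage points. CDR3 of 15 residues made up 18.1% of TRAV9 UMIs and 6.73% of those of the other families, and CDR3 of 12 residues 9.49 and 16.3%. Small residues were lower in 11 of 12 libraries (28.5 against 31.4%, adjusted p = 0.00731, permutation). The mean TRAJ number was higher by 2.28 (25.8 ± 2.60 against 23.5 ± 0.649, higher in 10 of 12 libraries, adjusted p = 0.017, permutation). Counted once per clonotype and library, the difference was 0.734 and did not pass the threshold.

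**Figure D4:**
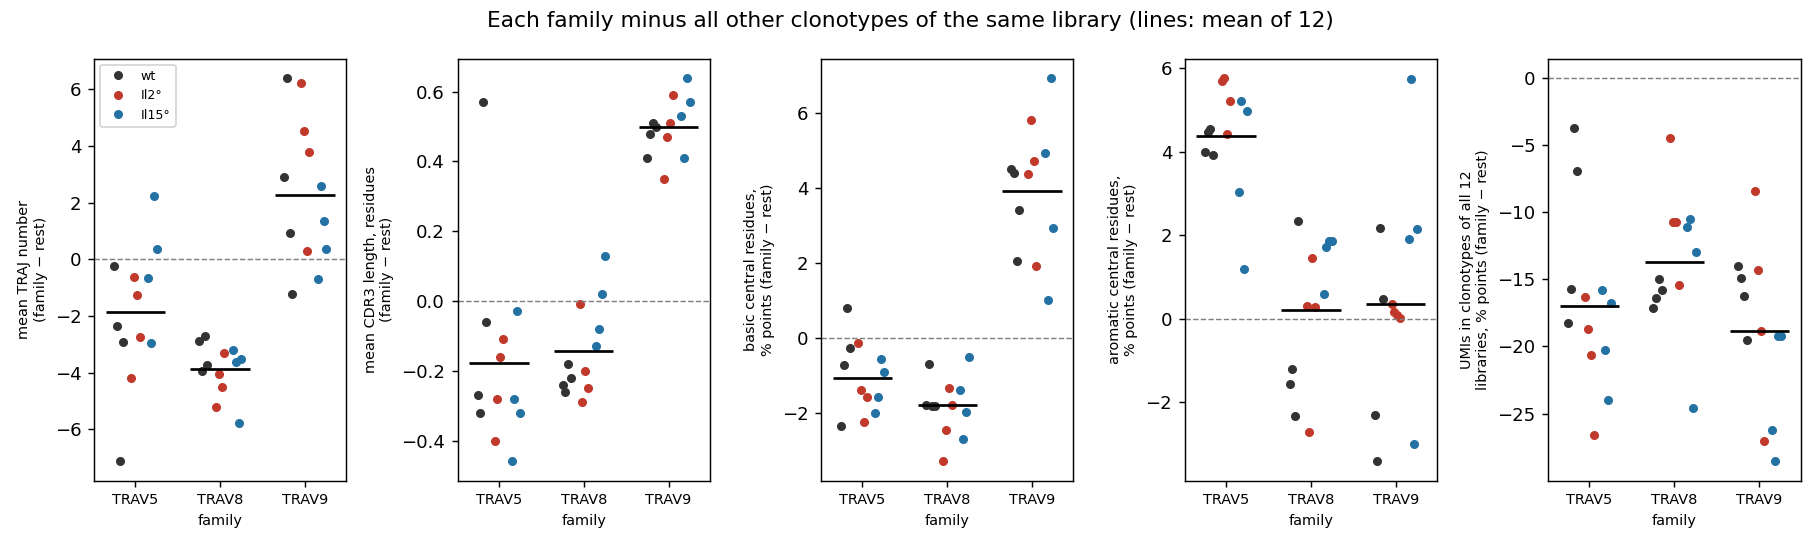
Value of each family minus that of all other clonotypes of the same library for the mean TRAJ number, the mean CDR3 length (residues), basic and aromatic central residues (percentage points) and UMIs in clonotypes found in all 12 libraries (percentage points). Points are libraries coloured by genotype, black lines the mean of 12 and the dashed line no difference. TRAV8 lies below 0 for the TRAJ number and TRAV9 above 0 for length and basic residues in all 12 libraries.

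Between genotypes, few of these features separated. The mean TRAJ number of TRAV8 was 20.3, 20.3, 22.1 and 20.4 in wt, 19.1, 18.5, 18.9 and 19.97 in Il2°, and 20.2, 19.6, 17.4 and 20.3 in Il15° libraries. Every Il2° library was below every wt library, with wt replicate 3 the highest. The difference was -1.63 (exact Mann-Whitney p = 0.0286, n = 4, adjusted p = 0.4 over 14 families), and -1.2 without wt replicate 3. With each clonotype counted once (-1.54) or with libraries downsampled to equal depth (-1.6), 0 of the 3 families were without overlap, beside 14.3 and 0% of the 14. TRAV8 was the only family of the 14 without overlap in this comparison (7.14%), as was 7.14% in each of the other comparisons, which held none of the 3 families. The mean length of TRAV8 CDR3 was 12.85, 12.84, 12.90 and 12.85 residues in wt and 12.97, 13.02, 13.11 and 13.22 in Il15° libraries, without overlap (difference 0.218, exact p = 0.0286, n = 4, adjusted p = 0.2). With any library left out the difference was 0.171 to 0.255 residues. With each clonotype counted once it was 0.231 residues, and the libraries overlapped (exact Mann-Whitney p = 0.0571, n = 4). With all UMIs counted, 14.3% of families did not overlap in this comparison, as in both others, and the other 2 comparisons held none of the 3 families. In the number of bases between V and J, 0 of the 3 families were without overlap in each comparison (background 0% for both mutants against wt and 7.14% for Il15° against Il2°).

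Central residue classes without overlap between genotypes numbered 2 of 24 in Il2° against wt, 1 of 24 in Il15° against wt and 3 of 24 in Il15° against Il2° over the 3 families. Over all families and classes 6.25, 4.46 and 9.82% were without overlap, and no class passed adjustment (smallest adjusted p for these 0.457, 0.64 and 0.291, exact Mann-Whitney, n = 4). These separations depended on the central positions used, and some on the counting. With each clonotype counted once, TRAV5 small residues had an exact Mann-Whitney p of 0.343 (Il2° against wt) and 0.486 (Il15° against Il2°). TRAV8 polar residues had 0.0571 in Il15° against Il2°, both counted once and downsampled. Counted once, 2, 3 and 2 of the 24 classes did not overlap, beside 7.14, 6.25 and 6.25% over all. Without the first 3 and last 5 positions, 0, 0 and 1 of the 24 classes did not overlap, beside 6.25, 1.79 and 8.04% over all. In TRAV5 aromatic residues were at 15.6 ± 0.627% in Il2° and 14.4 ± 0.239% in wt libraries, and small residues at 26.7 ± 1.41 and 29.99 ± 1.55%. Small residues of TRAV5 were at 30.9 ± 2.89% in Il15° libraries, above all Il2° libraries. Central cysteine of TRAV5 rested on 1, 1, 5 and 2 residues in wt libraries, each from a single nucleotide sequence, and on 0 residues in Il15° libraries, where a count of 0 allows 0.258 to 0.539% of central residues. The wt values of 0.0608, 0.0501, 0.464 and 0.182% are largely under these limits, so that this difference was not detectable at this depth. In TRAV8 small residues were at 33.7 ± 0.779% in Il15° and 30.5 ± 0.841% in Il2° libraries, and polar residues at 44.7 ± 1.46 and 47.3 ± 1.26% (SD, n = 4).

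Clonotypes of the 3 families were shared among mice less than those of the other families when weighted by UMIs. Clonotypes found in all 12 libraries held 12.4 ± 6.30% of TRAV5, 15.6 ± 5.16% of TRAV8 and 10.4 ± 5.59% of TRAV9 UMIs per library, against 29.4, 29.4 and 29.3% of the rest, lower in 12 of 12 libraries for each family (permutation, adjusted p = 0.00112). Among the 14 families such differences ranged from -19.0 percentage points for TRAV13 to 28.0 for TRAV10. There were 5 such clonotypes among the members: the leading clonotypes of each family named above, TRAV8-1 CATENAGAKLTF TRAJ39 and TRAV8-1 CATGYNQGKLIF TRAJ23 (93 UMIs).

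Clonotypes present in all 4 libraries of a genotype, termed public, numbered 25 of 604 member clonotypes in wt, 24 of 688 in Il2° and 17 of 370 in Il15° mice. Over all in-frame clonotypes there were 618 of 10702, 423 of 10314 and 403 of 7203. At an equal depth of 7293 UMIs the members' counts were 11.95, 18.25 and 8.4 (means of 20 draws), so that the order of wt and Il2° turned, beside 358.6, 317.6 and 265.4 over all in-frame clonotypes, where it did not. Public clonotypes held 29.1 ± 6.07% of member UMIs for wt, 31.8 ± 8.24% for Il2° and 19.8 ± 3.84% for Il15° mice, beside 45.4 ± 3.00, 41.2 ± 3.08 and 40.0 ± 1.77% for the other families (SD, n = 4). These values were not tested. Of the 25 public clonotypes of wt, 11 (44.0%) were not public in Il2° and 19 (76.0%) not public in Il15° mice, beside 54.9 and 61.0% over all in-frame clonotypes. Conversely, 10 of 24 (41.7%) of Il2° and 11 of 17 (64.7%) of Il15° mice were not public in wt, beside 34.0 and 40.2% over all. These shares moved with depth: at 7293 UMIs a library, 27.7% of the members public in wt were not public in Il2° and 53.4% the other way round, beside 46.7 and 39.8% over all, and for Il15° they were 68.8 and 55.2%, beside 54.1 and 38.0%. Most members were private: 56.4% were found in a single library, against 52.4% of the clonotypes of the other families.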

How the data were processed

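The deposited tables, a table for each mouse, list nucleotide clonotypes with their V and J segments. Per the study's methods the authors filtered reads by quality and built a consensus per UMI with pRESTO, discarding UMIs seen in a single read. They aligned and assembled clones with MiXCR and exported them for VDJtools. The labels name the genome build mm10, and tool versions are not given in the sources used here. The deposited count is the number of UMIs of a clonotype, whole and not normalized, and the deposited fraction is its part of the library's total count. Percentages here were computed from the counts over in-frame UMIs. The deposited V end and J start gave the inserted bases, which lacked a position for 16 member UMIs. 5 repeated rows of members were summed. Mice were not pooled, and n is the number of mice.

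Per-library values of 2 genotypes went into exact Mann-Whitney tests (2-sided) with Benjamini-Hochberg adjustment over 14 TRAV families (112 tests for residue classes). Counts of segments, of V family and J pairs and of clonotypes were filtered (a minimum of 5 UMIs in 4 or more of the 8 libraries) and tested with edgeR's quasi-likelihood test with TMM and Benjamini-Hochberg adjustment over the whole table at a threshold of 0.05. Fold changes are log2. Alternatives were DESeq2, limma on log2(percent + 0.01), no TMM, no filter, the replicate number as a block, merged or separate copies, nucleotide clonotypes, each clonotype counted once, downsampling to 7293 UMIs (20 draws), other central positions (without the first 3 and last 5) and each library left out. On family shares, edgeR without TMM, DESeq2 and limma were added after seeing the data.

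Named were all segments, the 5 J segments with the highest mean share of each family, the 4 clonotypes of each family with the highest mean share, and any pair or clonotype with an edgeR adjusted p under 0.05. The members and lists were chosen with earlier results of these data known. Germline starts and coordinates came from GENCODE M21 (GRCm38), matched by name. The R packages edgeR 4.0.16, DESeq2 1.42.0 and limma 3.58.1 ran under R 4.3.3, and other steps under Python 3.11.15 (scipy 1.17.1, pandas 2.3.3, numpy 2.4.6). The edgeR and exact tests were tested on simulated data.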

Additional observations from a re-analysis of the deposited data

Results flagged for a closer look

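In groups of 4 libraries a single library was flagged when its distance to the nearest other library exceeded Dixon's 95% value of the whole range, which chance does in about 1 in 20 groups. Of 60 groups tested, 7 were flagged. Wt replicate 3 was flagged in 4 of them: it had a mean TRAJ number of 22.06 for TRAV8 (others 20.26 to 20.43), a mean TRAV8 CDR3 length of 12.9 residues (others 12.84 to 12.85), 1.402 inserted bases for TRAV8 (others 2.174 to 2.291) and 3.347 inserted bases for TRAV5 (others 2.129 to 2.245). TRAV8-2 with its copies held 0.7378% of in-frame UMIs in Il2° replicate 1 (others 1.322 to 1.44%). TRAV9-1 held 0.3135% in Il15° replicate 2 (others 0.0774 to 0.0985%), and TRAV9-4, a merged group with CAV and CAL starts, 0.192% in Il2° replicate 4 (others 0.378 to 0.416%). Outside the in-frame clonotypes, 404 UMIs of the 3 families were out of frame or held a stop codon, 4.62% of their 8738 UMIs, beside 4.35% in the other families.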

How the results depend on the processing

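The genotypes use the same replicate numbers for other mice, and same-numbered libraries did not deviate together (r from -0.229 to 0.277 across 42 segments, which are not independent). With the replicate block the edgeR log2 fold change of the TRAV9 family in Il2° against wt was 0.389 and lost its unadjusted threshold, and 1 pair of these families with a J segment was called in Il15° against Il2° (1.77% of all pairs), where the fit without a block called 0. DESeq2 called 1 such pair in Il2° against wt (4.93% of all) and 1 in Il15° against Il2° (4.26%), and the fit without a filter 1 in the latter (1.38%). Leaving out single libraries gave 0 to 1 pairs in Il2° against wt, 0 to 3 in Il15° against Il2° and 0 to 1 segments in Il2° against wt. Without Il2° replicate 1, 4.1% of all pairs and 15.6% of all segments were called in Il2° against wt, and without Il15° replicate 2, 5.06% of all pairs in Il15° against Il2°. On family shares, limma gave TRAV5 log2 fold changes of 0.391 in Il2° against wt and -0.4804 in Il15° against Il2°, and edgeR without TMM gave TRAV8 0.528 and -0.6221, all with an unadjusted p under 0.05. Of all 19 families, 7 and 5 reached this threshold with limma in these comparisons, and 7 and 8 with edgeR without TMM. Why these calls differ was not tested.

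Counting each clonotype once gave a TRAV5 share difference of 0.04778 points in Il15° against wt (opposite sign). The TRAV9 share difference in Il2° against wt was 0.3193 points, and the libraries then overlapped (exact Mann-Whitney p = 0.0571). The TRAV8 mean TRAJ number difference was -1.544 (-1.6 downsampled), with 0 of the 3 families without overlap in both cases. The TRAV8 length difference in Il15° against wt was 0.231 residues, and the TRAV8 libraries then overlapped (exact Mann-Whitney p = 0.0571). In this comparison 2 of the 3 families (14.3% of the 14), TRAV8 not among them, did not overlap in length. The residue classes without overlap in it numbered 3 (6.25% of all). With other central positions the residue classes without overlap were 0, 0 and 1 in the 3 comparisons (6.25, 1.79 and 8.04% over all families), and TRAV5 cysteine turned to 0.009955 points in Il15° against wt. Against the rest, counting once turned the sign of TRAV5 length (0.04913 residues), of inserted bases of TRAV8 (-0.2413) and TRAV9 (-0.2829), of aliphatic residues of TRAV8 (-1.348) and TRAV9 (-0.1369) and of polar residues of TRAV9 (1.427), and a TRAV9 TRAJ difference of 0.7338 did not pass. Leave-one-out ranges were -0.2476 to -0.1526 residues for TRAV5 length, 0.04779 to 0.1928 inserted bases for TRAV5 and 0.06024 to 0.1604 for TRAV8. Those of central residues were -0.1111 (without wt replicate 3) to 0.5142 points for aliphatic residues of TRAV5 and -0.1315 (without Il15° replicate 2) to 0.7018 points for aromatic residues of TRAV9. Public clonotypes numbered 13, 14 and 6 (wt, Il2°, Il15°) at a minimum of 2 UMIs, 46, 58 and 56 in at least 3 of 4 libraries, and 11.95, 18.25 and 8.4 after downsampling. The cause of these changes was not tested.

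The other 488 values for the comparisons kept their direction and side of the threshold, or stayed within the spread between libraries where a library was left out, or near the count with all libraries. With a library left out, 4 against 3 libraries cannot reach an exact p below 0.0571, so those Mann-Whitney tests say nothing about stability. Single clonotypes were the least sensitive. In simulations after Il2° against wt, all of 21 changes of 16-fold but few of 28 changes of 2-fold were found among 445 clonotypes. Counting error and spread between mice were not told apart.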

Other observations

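Of the clonotypes of the 3 families, those found in at least 6 libraries had a median of 3 nucleotide sequences each, in TRAV5 (32 clonotypes), TRAV8 (21) and TRAV9 (8), beside a median of 4 for 1287 clonotypes of the other families. Joins without any base between V and J made up 34.3 ± 4.63% of TRAV5, 36.1 ± 8.76% of TRAV8 and 27.7 ± 13.1% of TRAV9 UMIs (SD over 12 libraries), beside 32.8 ± 1.11% in the other families. The highest TRAV9 value was 64.6% in Il15° replicate 3, the library in which the TRAV9N-2 clonotype with TRAJ18, which holds no such base in its commonest sequence, made up 31.7% of TRAV9 UMIs. Other clonotypes, chosen after their values were seen, were the largest TRAV9 clonotype of their library: TRAV9N-3 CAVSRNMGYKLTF TRAJ9 had 21 UMIs in Il15° replicate 1 and was found in 1 library, and TRAV9N-2 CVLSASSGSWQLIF TRAJ22 had 24 UMIs in Il15° replicate 4 and was found in 3 libraries.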
